A study of Homo sapiens with 4 samples.

Results

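The genes described here are 35 transcriptional targets of the tumour suppressor p53, listed by name for their roles in cell cycle arrest, cell death, DNA repair and metabolism. All 35 were found among the 60725 genes of the RNA-seq count table by mapping its gene identifiers to current symbols. Of these, 34 had at least 10 counts in at least 2 libraries and were tested together with all other genes that passed, 15356 in total. GDF15, which encodes a secreted stress cytokine, did not pass, with 3 and 5 counts in control and 1 and 6 counts after knockdown.

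The RNA came from RPE1 SunTag cells, a single line of human retinal pigment epithelial cells immortalized with telomerase (hTERT-RPE1) that carries the SunTag protein-tagging system. Control cells received Silencer Select Negative Control No. 2 siRNA, and TOP2B knockdown cells received a Dharmacon pool of siRNAs against TOP2B, which encodes DNA topoisomerase II beta. Cells of either group were transfected with 10 nM siRNA, transfected again after 48 h, and harvested 72 h after the second transfection, on day 5, as 2 libraries per group. The siRNAs differ between the groups in make as well as in target, so loss of TOP2B and other effects of these siRNAs cannot be told apart. The comparison asks which transcripts changed when TOP2B was depleted.

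The protein p53 is kept low by the ubiquitin ligase MDM2 and accumulates after DNA damage and other stresses. It binds DNA as a tetramer and raises the transcription of genes that stop the cell cycle, repair DNA, adjust metabolism or start cell death. One target, the cyclin-dependent kinase inhibitor p21 encoded by CDKN1A, in turn allows the DREAM repressor complex to form on promoters of cell cycle genes. Topoisomerase II enzymes pass one DNA duplex through a transient break in another, and TOP2B is the form that non-dividing cells keep.

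The libraries held between 20310259 and 23887013 counts, so that 1 CPM (counts scaled to library size and between libraries by TMM) rested on 20.3 to 23.9 reads. TOP2B itself had 154.9 and 143.5 CPM in control and 15.3 and 13.3 CPM after knockdown, or 9.58% of the control mean, with a log2(fold change) of -3.38 ± 0.14 (SE) and an adjusted p of 5.1e-06. Of the pigment epithelium markers, MITF lay between 38.2 and 44.8 CPM and OTX2 between 11.2 and 13.4 CPM, while the defining genes RPE65, TYR and TTR were at 0 in every library. The keratin gene KRT8 lay between 854 and 1347 CPM and VIM between 938 and 1019 CPM. Of the other keratin genes listed, KRT18 lay between 266.3 and 424.4 CPM and KRT7 between 9.27 and 20.98 CPM, while KRT19 reached at most 0.395 CPM. Markers of immune cells summed to at most 0.710 CPM and those of endothelial cells to between 9.21 and 13.8 CPM. Fibroblast markers summed to 182.6 and 143.2 CPM in control and 124.3 and 123.7 CPM after knockdown, nearly all from PDGFRB. Mitochondrially encoded genes took 5.67% and 5.66% of the control counts and 4.57% and 4.50% after knockdown, and their part in the results below was not tested.

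DNA near the members was searched for the p53 consensus site, which is a pair of decamers with a 4-base core each. A site was counted when the 2 decamers adjoined, both cores were intact and at most 2 of the 20 bases were off the consensus. Sites with a gap between the decamers were not counted. The search covered 2500 bases either side of the RefSeq start (GRCh38.p14). Such a site lay near 11 of the 29 members with a start in that table (37.9%), against 2.47% of its 27305 genes. With at most 1 base off, 3 of the 29 members (10.3%) and 0.502% of all genes had one. Within the promoter window alone, from 250 bases before the start to 50 after it, the shares were 3.45% and 0.15%. The members were listed as p53 targets, so these shares describe the list and are no separate support for p53 binding. For TP53INP1, GADD45A, PHLDA3, TNFRSF10A, TNFRSF10B and RRM2B no window was searched. The following 6 sites are printed because they lie near CDKN1A and BTG2, on which the arrest results turn, have at most 1 base off (PLK2, ZMAT3, CCNG1), or lie within the promoter window (AEN). They are written 5′ to 3′ on the strand of the gene, with the 4-base cores in capitals.
CDKN1A: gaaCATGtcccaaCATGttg
BTG2: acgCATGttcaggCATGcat
PLK2: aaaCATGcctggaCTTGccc
ZMAT3: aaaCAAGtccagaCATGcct
CCNG1: gcaCAAGcccaggCTAGtcc
AEN: gggCTTGcccgggCATGtgg
The CDKN1A site (chr6:36676449-36676468, plus strand) lies at -2256 bases from the RefSeq start and upstream of the canonical transcript, is 2 bases off the consensus, and overlaps the first bases of the gene as GENCODE v44 bounds it (from 36676460). The BTG2 site (chr1:203303642-203303661, plus strand, position -1868) is also upstream and 2 bases off. The PLK2 site (chr5:58462274-58462293, minus strand, position -2198) is upstream with 0 bases off, and the ZMAT3 site (chr3:179070188-179070207, minus strand, position 1611) is in intron 1 with 0 bases off. CCNG1 has its site in intron 1 (chr5:163437926-163437945, plus strand, position 364) with 1 base off, and AEN directly before its start (chr15:88621306-88621325, plus strand, position -25) with 2 bases off. No such site was found in the windows of DRAM1, SESN2 and FDXR, which says only that these letters are not there. The part of the consensus with the core CATG in both decamers, CATGNNNNNNCATG, is its own reverse complement and overlaps the full site. It was found within 2500 bases of 8 of the 29 members (27.6%) and of 17.4% of all genes.

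In control cells the members spanned a wide range of transcript levels. Per kilobase of canonical transcript, PLK2 was highest with 270.0 CPM, followed by CDKN1A with 266.6 and BAX with 256.3, 3 genes whose order the spread of the 2 control libraries does not separate. CCNG1 (92.9 CPM per kilobase) and TNFRSF10B (73.3) came next. The highest level was 14.98 times the median of the members. At the low end, TNFRSF10A had 2.90, SPATA18 1.95 and GDF15 0.144 CPM per kilobase. Before scaling to length, CDKN1A stood at 464.5 and 664.3 CPM and MDM2 at 195.8 and 183.9 CPM in the control libraries.

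**Figure D1:**
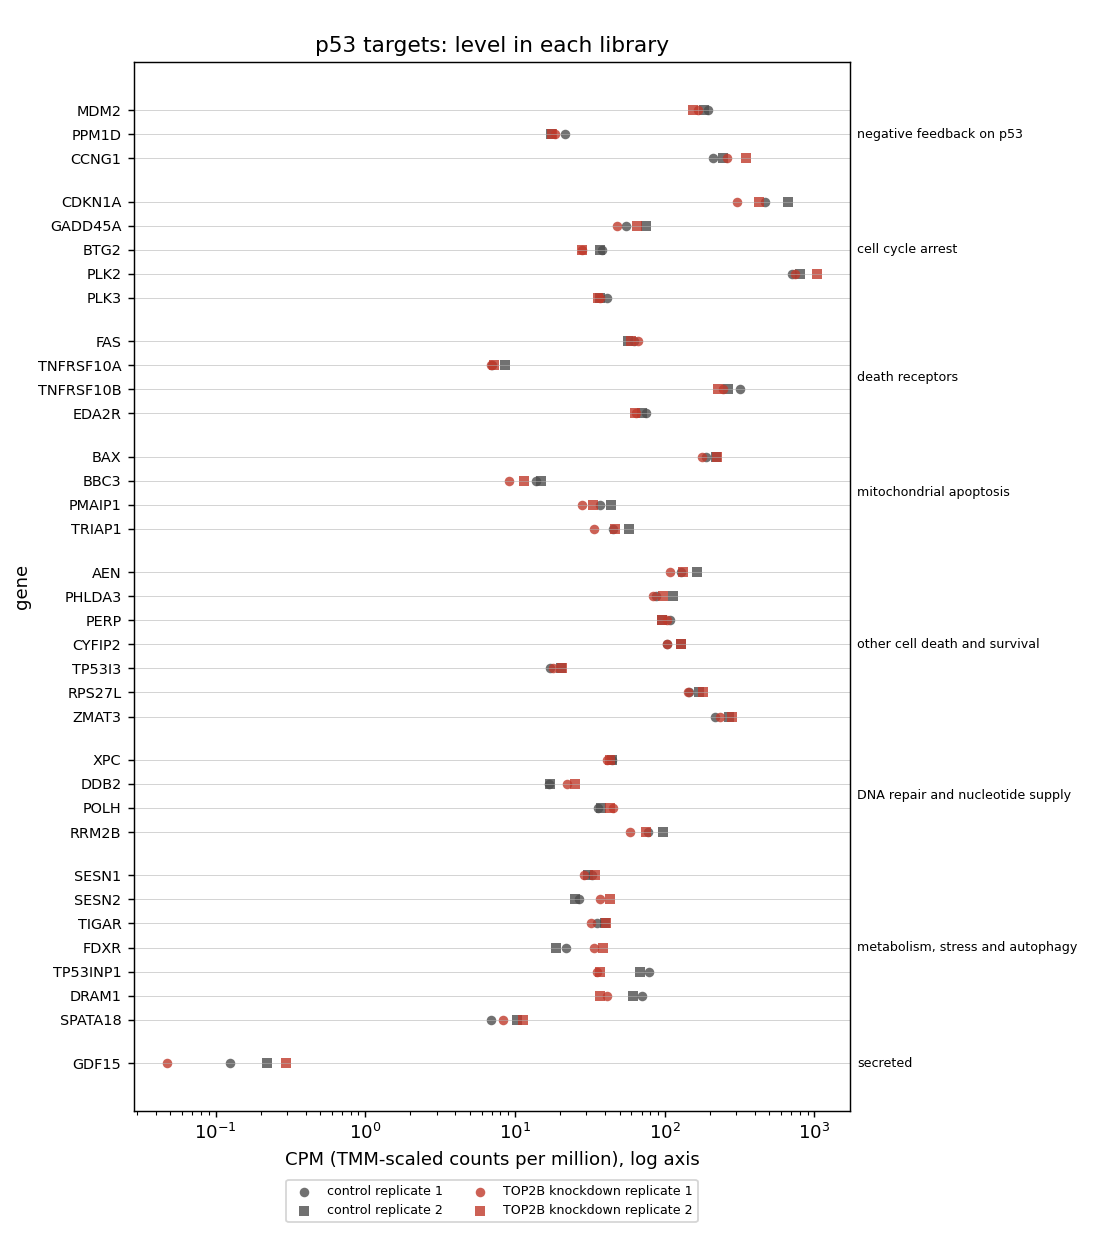
Level of each of the 35 p53 targets in each library, in CPM on a log axis, ordered by role; black symbols are the 2 control libraries and red symbols the 2 TOP2B knockdown libraries, with circles for replicate 1 and squares for replicate 2. Most rows show the 4 symbols close together, while TP53INP1 and DRAM1 have both red symbols to the left and FDXR and SESN2 both to the right of the black ones.

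After TOP2B depletion, 2 p53 targets rose (FDXR and SESN2) and 3 fell (TP53INP1, DRAM1 and BTG2), by the two-sided quasi-likelihood test of edgeR, called where the Benjamini-Hochberg p, adjusted over all genes tested, was under 0.05. These 5 of 34 members are 14.7%, beside 10.8% of all genes tested. Higher were 5.88% of members and 6.66% of all genes, and lower 8.82% of members and 4.18% of all genes. For 17 members (50%, beside 54.3% of all genes) the values of the groups did not overlap, with 5 members above (14.7%, against 27.7% of all genes) and 12 below (35.3%, against 26.6%). Before adjustment, p was under 0.05 for 12 members (35.3%) and for 26.3% of all genes. DESeq2 also called 5 members, 2 higher and 3 lower, beside 11.8% of all genes it tested, with CDKN1A in place of BTG2. An edgeR fit that added replicate number as a term called 20 members, beside 44.2% of all genes. The share of members called higher was near that of all genes, and the larger share called lower rests on 3 genes and was not tested. In bulk RNA, fewer cells that express a gene and less of its RNA per cell cannot be told apart. Of the members called by edgeR, 4 of the 5 were placed in the metabolism, stress and autophagy group, which has 7 tested members. Each member was assigned to 1 role only, and how the calls divide over the roles was not tested.

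The median log2(fold change) of the members was -0.09, beside -0.0029 for all genes tested, with an interquartile range from -0.31 to 0.07 (all genes, -0.22 to 0.26). The fitted change was negative for 23 members and positive for 11, so that 67.6% were negative, against 50.2% of all genes. Between single pairs of a knockdown and a control library the median of the members ranged from -0.24 to 0.03 with an SD of 0.12. These 4 pairs share libraries, so they describe the spread and are no test of the median. TP53INP1 was the only member whose fitted change exceeded 2-fold.

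**Figure D2:**
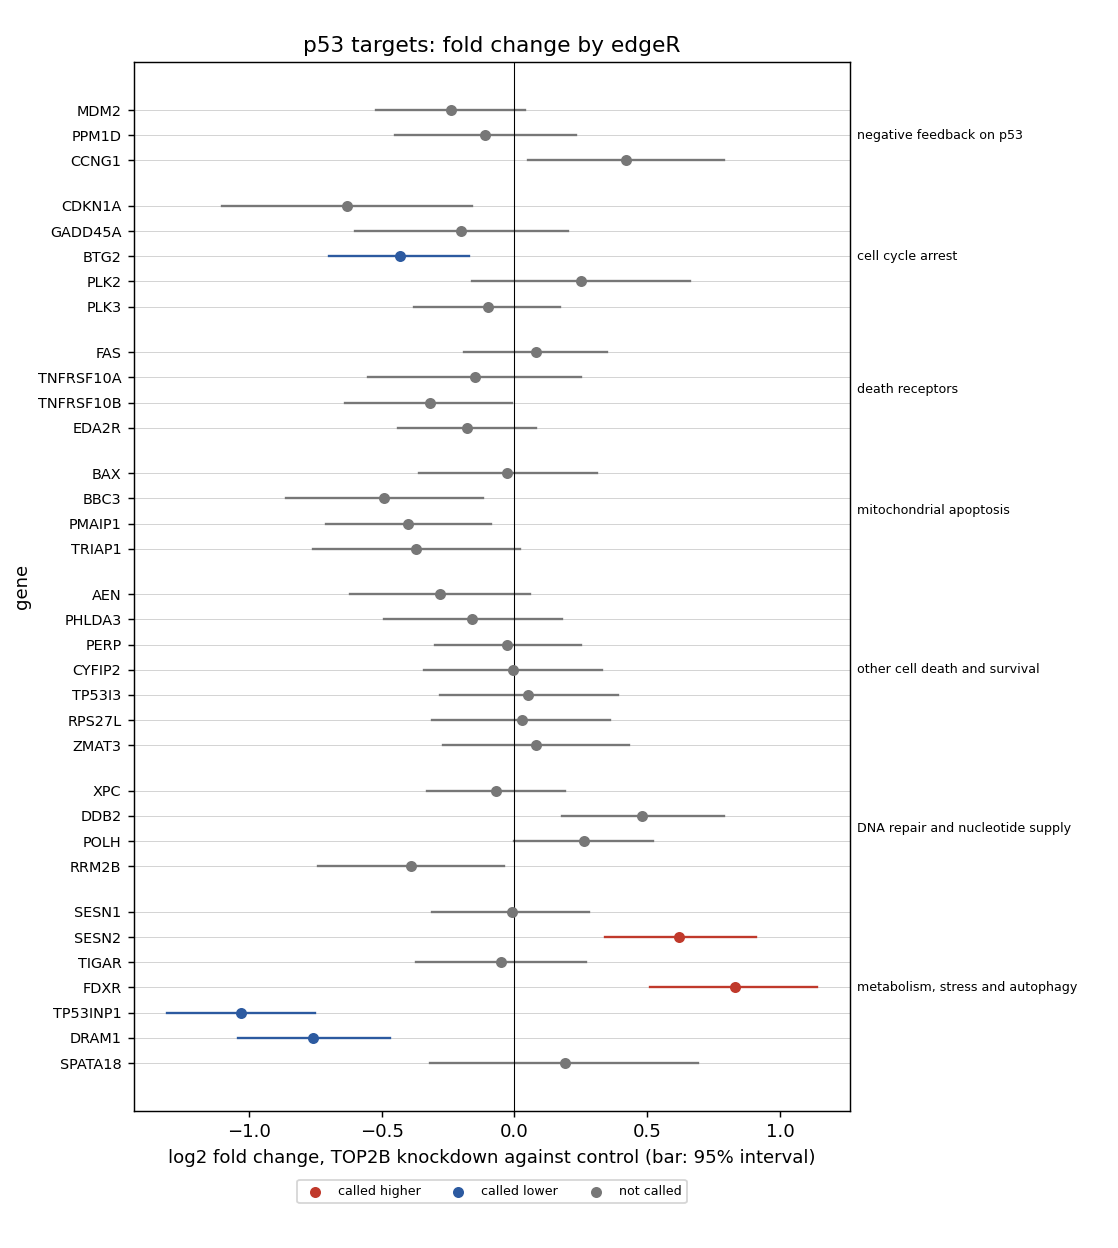
Log2(fold change) of the 34 tested p53 targets, TOP2B knockdown against control, from edgeR, ordered by role; points are fitted values, bars their unadjusted 95% intervals, red and blue mark genes called higher and lower and grey those not called. TP53INP1 (-1.03) and DRAM1 (-0.76) stand farthest to the left and FDXR (0.83) farthest to the right, while the 7 genes of other cell death and survival sit between -0.28 and 0.08.

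The 5 genes of the cell cycle arrest group had a median log2(fold change) of -0.20, and 1 of them, BTG2, was called by edgeR. Over all genes tested, 10.8% were called, 4.18% as lower, and groups did not overlap for 54.3%. BTG2, an antiproliferative factor that helps shorten the poly(A) tails of mRNAs, had 38.04 and 37.02 CPM in control and 27.8 and 27.8 CPM after knockdown. The groups did not overlap, and the level fell to 74.2% of the control mean (log2(fold change) -0.43 ± 0.12 SE, edgeR adjusted p = 0.0465). This call is at the edge of the threshold: the Wald test of DESeq2 gave an adjusted p of 0.058, and each of the 4 fits without one library gave between 0.143 and 0.2.

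CDKN1A had 464.5 and 664.3 CPM in control and 303.5 and 425.0 CPM after knockdown. Both knockdown libraries were below both control libraries, but replicate 1 was the lower library in either group and the gap between groups, 425.0 against 464.5 CPM, was smaller than the gap within each. The mean was 564 ± 141 CPM (SD, n = 2) in control and 364 ± 85.9 CPM (SD, n = 2) after knockdown, or 64.5% of control. The fitted log2(fold change) of -0.63 (95% interval -1.10 to -0.16, unadjusted) did not pass with edgeR (adjusted p = 0.0863) and passed with DESeq2 (-0.65, adjusted p = 0.0135), in edgeR without a filter on counts (-0.64, adjusted p = 0.000528) and with replicate number as a term (-0.63, adjusted p = 4.95e-08). It also passed in edgeR without control replicate 1 (-0.87, adjusted p = 0.00535) or without knockdown replicate 2 (-0.91, adjusted p = 0.0133), but not without control replicate 2 (-0.35, adjusted p = 0.454) or knockdown replicate 1 (-0.41, adjusted p = 0.439). Whether CDKN1A was called lower therefore depended on the test, the filter, the replicate term and which library was kept. Its fitted change was negative in every fit.

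The other arrest genes did not pass. PLK2, a polo-like kinase and the member with the highest level, had 703.9 and 800.3 CPM in control and 746.7 and 1042.8 CPM after knockdown (log2(fold change) 0.25, 95% interval -0.16 to 0.66). Its groups overlapped, as did those of GADD45A, a stress-induced growth arrest gene, at 55.1 and 75.4 against 48.3 and 65.2 CPM. PLK3, another polo-like kinase, had 41.0 and 37.1 CPM in control and 36.9 and 35.8 CPM after knockdown, a gap smaller than the difference between the control libraries.

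The 3 genes of negative feedback on p53 were not called by edgeR or DESeq2, and their fitted changes differed in sign. CCNG1 alone had an unadjusted p under 0.05, beside 26.3% of all genes. MDM2, the ubiquitin ligase for p53, had 195.8 and 183.9 CPM in control and 166.1 and 155.5 CPM after knockdown. Both knockdown libraries were lower, at 84.7% of the control mean, with a log2(fold change) of -0.24 (95% interval -0.52 to 0.04, edgeR adjusted p = 0.254). CCNG1, which encodes cyclin G1 and works with a phosphatase that acts on MDM2, had 209.5 and 244.5 CPM in control and 259.6 and 347.1 CPM after knockdown (0.42, 95% interval 0.05 to 0.79, adjusted p = 0.139). Both knockdown libraries were higher, although they differed from each other by more than the groups' nearest libraries did. PPM1D, the phosphatase that removes activating phosphates from p53, ranged from 17.4 to 21.7 CPM with overlapping groups.

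Among the death receptor genes, TNFRSF10B (DR5, a receptor for the ligand TRAIL) had 320.0 and 266.2 CPM in control and 243.4 and 225.4 CPM after knockdown. Its groups did not overlap, but the log2(fold change) of -0.32 (95% interval -0.64 to -0.01) missed the threshold at an adjusted p of 0.182. EDA2R, a receptor for ectodysplasin A2, was at 75.5 and 70.0 against 64.6 and 63.8 CPM, again without overlap (-0.18, adjusted p = 0.366). FAS (56.8 to 66.2 CPM over the libraries) and TNFRSF10A (DR4, 6.89 to 8.55 CPM) overlapped between groups. Neither edgeR nor DESeq2 called any of the 4 genes. TNFRSF10B was the 1 with an unadjusted p under 0.05, beside 26.3% of all genes, and 54.3% of all genes did not overlap.

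The 4 genes of the mitochondrial apoptosis group had the lowest group median, -0.39, and none of them was called by edgeR or DESeq2. An unadjusted p under 0.05 was found for 2 of them (BBC3 and PMAIP1) and for 26.3% of all genes. BBC3, which encodes the BH3-only protein PUMA, had 13.9 and 15.0 CPM in control and 9.06 and 11.5 CPM after knockdown, without overlap (-0.49, 95% interval -0.86 to -0.12, edgeR adjusted p = 0.0928). PMAIP1, which encodes the BH3-only protein NOXA, had 36.9 and 43.7 CPM in control and 28.1 and 33.0 CPM after knockdown, also without overlap (-0.40, 95% interval -0.71 to -0.09, adjusted p = 0.101). TRIAP1, a small survival factor of the intermembrane space, had 45.4 and 58.1 against 33.6 and 46.4 CPM. Its groups overlapped (-0.37, adjusted p = 0.21), and it passed without control replicate 1 (-0.54, adjusted p = 0.0434) or without knockdown replicate 2 (-0.64, adjusted p = 0.0213). BAX, whose protein forms pores in the outer mitochondrial membrane, was at 98.2% of its control mean, with 187.8 and 219.8 against 178.2 and 221.9 CPM (95% interval -0.36 to 0.31).

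All 7 genes of the other cell death and survival group had overlapping values between control and knockdown, with a median of -0.0039. Groups did not overlap for 54.3% of all genes. For 0 of the 7 was the unadjusted p under 0.05 in edgeR (26.3% of all genes), and DESeq2 called 0. AEN, a nuclease of apoptosis, had the lowest fitted value, with 129.2 and 163.4 CPM in control and 108.7 and 132.4 CPM after knockdown (-0.28, 95% interval -0.62 to 0.06). Of the 29 members searched, AEN alone had a p53 site in its promoter window. ZMAT3, which encodes an RNA-binding splicing regulator and has a full p53 site in intron 1, was at 216.0 and 269.9 against 232.6 and 280.6 CPM (0.08, 95% interval -0.27 to 0.43). CYFIP2 was nearly equal in both groups, at 104.0 and 128.6 against 103.6 and 128.4 CPM. PHLDA3, PERP, TP53I3 and RPS27L had fitted values between -0.16 and 0.05. In these genes replicate 1 and replicate 2 of a group were often farther apart than the groups.

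In the DNA repair and nucleotide supply group, none of the 4 genes was called by edgeR or DESeq2, and 2 had an unadjusted p under 0.05 (DDB2 and RRM2B). In none of the 4 did the groups overlap, with 2 above and 2 below the control range. Over all genes, 54.3% did not overlap and 26.3% had an unadjusted p under 0.05. DDB2, a subunit of the UV damage sensor of nucleotide excision repair, came closest, with 16.8 and 17.1 CPM in control and 22.2 and 25.2 CPM after knockdown, or 140% of the control mean. Its log2(fold change) of 0.48 ± 0.14 (SE; 95% interval 0.18 to 0.79) had an edgeR adjusted p of 0.0502, of 0.0955 with DESeq2 and of 0.0393 without a filter on counts. POLH, the translesion polymerase eta, was at 36.0 and 37.3 against 44.9 and 43.0 CPM (0.26, adjusted p = 0.191). In the other direction, RRM2B, the p53-induced subunit of ribonucleotide reductase, had 77.2 and 96.9 CPM in control and 58.3 and 74.8 CPM after knockdown (-0.39, adjusted p = 0.148), and passed without control replicate 1 (-0.54, adjusted p = 0.0447) or without knockdown replicate 2 (-0.59, adjusted p = 0.038). XPC, the sensor of global genome repair, was at 44.1 and 44.8 against 41.5 and 43.2 CPM (-0.07).

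The metabolism, stress and autophagy group held the largest changes among the members in both directions, with 2 higher, 2 lower and 3 not called. Over all genes tested, 6.66% were called higher and 4.18% lower, and groups did not overlap for 54.3%. Roles were assigned by hand, and whether this group differs from the others was not tested. TP53INP1, which encodes a cofactor of p53 that also acts in autophagy, had 79.1 and 68.2 CPM in control and 35.4 and 36.7 CPM after knockdown. Both knockdown libraries were far below both controls, at 48.9% of the control mean (log2(fold change) -1.03 ± 0.13 SE, edgeR adjusted p = 0.00156). DRAM1, a lysosomal membrane protein of autophagy, had 70.5 and 61.3 CPM in control and 41.3 and 36.8 CPM after knockdown, without overlap, and fell to 59.2% of the control mean (-0.76 ± 0.13 SE, adjusted p = 0.00642). Both calls held in each fit without one library, with fitted values between -1.13 and -0.92 for TP53INP1 and between -0.85 and -0.65 for DRAM1.

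FDXR, the mitochondrial ferredoxin reductase, had 22.0 and 18.8 CPM in control and 33.5 and 38.8 CPM after knockdown. The groups were well apart, and the level rose to 177% of the control mean (0.83 ± 0.14 SE, edgeR adjusted p = 0.00637), a call kept in each fit without one library (0.70 to 0.94). SESN2, a sestrin that restrains the growth kinase complex mTORC1, had 26.6 and 25.4 CPM in control and 37.1 and 43.0 CPM after knockdown, or 154% of the control mean (0.62 ± 0.13 SE, adjusted p = 0.0148). This call was lost without knockdown replicate 2 (0.50, adjusted p = 0.0891). Its relative SESN1 did not move beyond its spread, at 32.6 and 30.8 against 28.7 and 34.1 CPM. TIGAR, which lowers glycolytic flux, ranged from 32.4 to 40.7 CPM and SPATA18, a factor of mitochondrial quality control, from 6.93 to 11.3 CPM, both with overlapping groups.

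**Figure D3:**
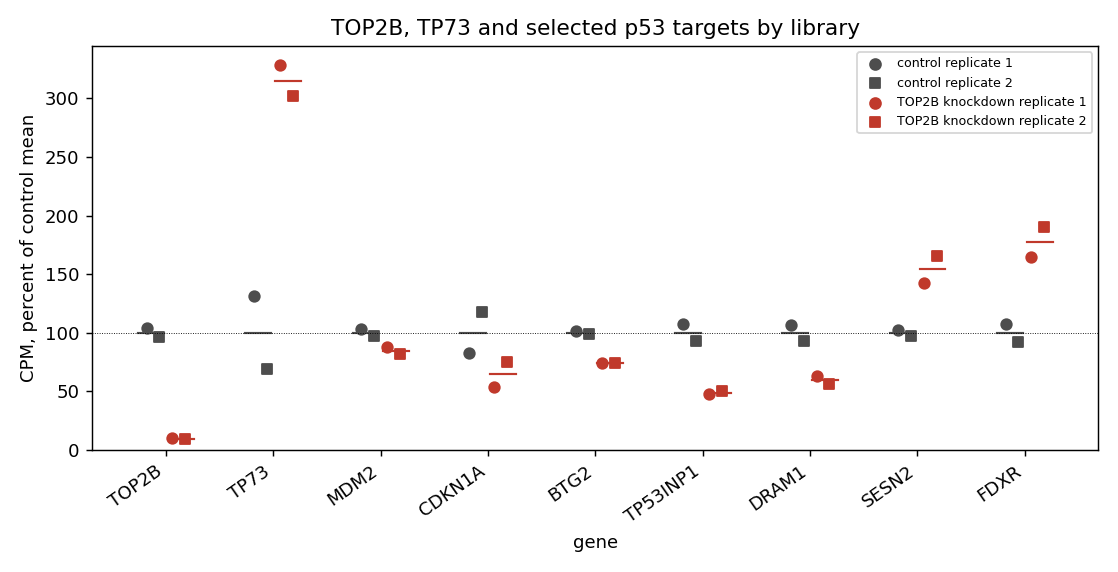
CPM of TOP2B, TP73 and 7 p53 targets in each library, as a percent of the control mean of that gene on a linear axis from 0; black marks control, red marks TOP2B knockdown, circles and squares are replicates 1 and 2, and short lines the group means. TP73, SESN2 and FDXR lie above their controls in both knockdown libraries, while MDM2, CDKN1A, BTG2, TP53INP1 and DRAM1 lie below theirs, with the widest spread between replicates in CDKN1A and in the controls of TP73.

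Of 37 tested regulators and cofactors of p53, 8 rose and 0 fell by edgeR (21.6% called, beside 10.8% of all genes, median 0.18). DESeq2 called 7 higher and 0 lower. Before adjustment, 11 higher genes and 1 lower gene had a p under 0.05 in edgeR, as did 26.3% of all genes. The lower one was the ubiquitin ligase RCHY1 (-0.47, adjusted p = 0.0913). TP73, whose protein belongs to the p53 family and can bind the same sites, had 1.34 and 0.702 CPM in control and 3.35 and 3.08 CPM after knockdown (1.64 ± 0.33 SE, adjusted p = 0.0126), a low level in every library. SETD7, a lysine methyltransferase reported to act on p53, rose from 85.8 and 88.8 to 167.1 and 191.7 CPM (1.04, adjusted p = 0.00156). HDAC1, a histone deacetylase, went from 54.3 and 41.1 to 91.5 and 98.9 CPM (1.00, adjusted p = 0.00325). MDM4, the MDM2 relative that masks the activation domain of p53, had 38.8 and 33.6 CPM in control and 36.3 and 29.8 CPM after knockdown, with overlapping groups (-0.13, adjusted p = 0.606). PPP1R13B (ASPP1), which directs p53 to apoptosis genes, was at 13.11 and 10.97 against 21.8 and 17.3 CPM (0.70, adjusted p = 0.0279), a call lost without control replicate 2 (0.57, adjusted p = 0.0901) or knockdown replicate 1 (0.52, adjusted p = 0.137).

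Among 60 further tested p53 targets that are not members, 3 rose and 4 fell, or 11.7%, close to the 10.8% of all genes, with a median of 0.0027. KITLG, the ligand of the receptor KIT, rose from 35.03 and 38.16 to 95.6 and 84.2 CPM (1.3, edgeR adjusted p = 0.000624). Lower were ACER2, an alkaline ceramidase (-1.0, adjusted p = 0.0426, at most 5.26 CPM; DESeq2 adjusted p = 0.0651), INKA2, an inhibitor of the kinase PAK4 (-0.77, adjusted p = 0.0201), and KCNN4, a calcium-activated potassium channel (-0.74, adjusted p = 0.00536). The ACER2 call was lost without control replicate 2 (-0.75, adjusted p = 0.175) or knockdown replicate 1 (-0.76, adjusted p = 0.17), and that of INKA2 without control replicate 2 (-0.62, adjusted p = 0.0879). DESeq2 called 3 genes of this list higher and 3 lower.

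Of 40 cell cycle genes that p53 lowers through p21 and the DREAM complex, 14 rose and 1 fell. The share called by edgeR was 37.5%, beside 10.8% of all genes, and DESeq2 called 13 higher and 1 lower. A positive fitted change was found for 37 of the 40, with a median of 0.32, while 50.2% of all genes had a negative one. MYBL2, a transcription factor of the G2 programme, rose from 36.2 and 45.4 to 83.3 and 91.1 CPM (1.10, edgeR adjusted p = 0.00175). The mitotic kinase TTK rose from 38.4 and 36.7 to 64.4 and 65.9 CPM (0.79, adjusted p = 0.00307), and the recombination gene RAD54L by 0.78 on the log2 scale (adjusted p = 0.0107). Of the RAD54L exon bases, 19.9% overlap LRRC41 on the other strand, which averaged 2686 counts per library. CCNE2, which encodes cyclin E2, was higher by 1.11 (adjusted p = 0.00286), but 37.0% of its exon bases overlap INTS8 on the other strand. The exception was CKS1B, a subunit of cyclin-dependent kinase complexes, which was lower (-0.63, adjusted p = 0.0167), but not past the threshold without control replicate 2 (-0.49, adjusted p = 0.0974).

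**Figure D4:**
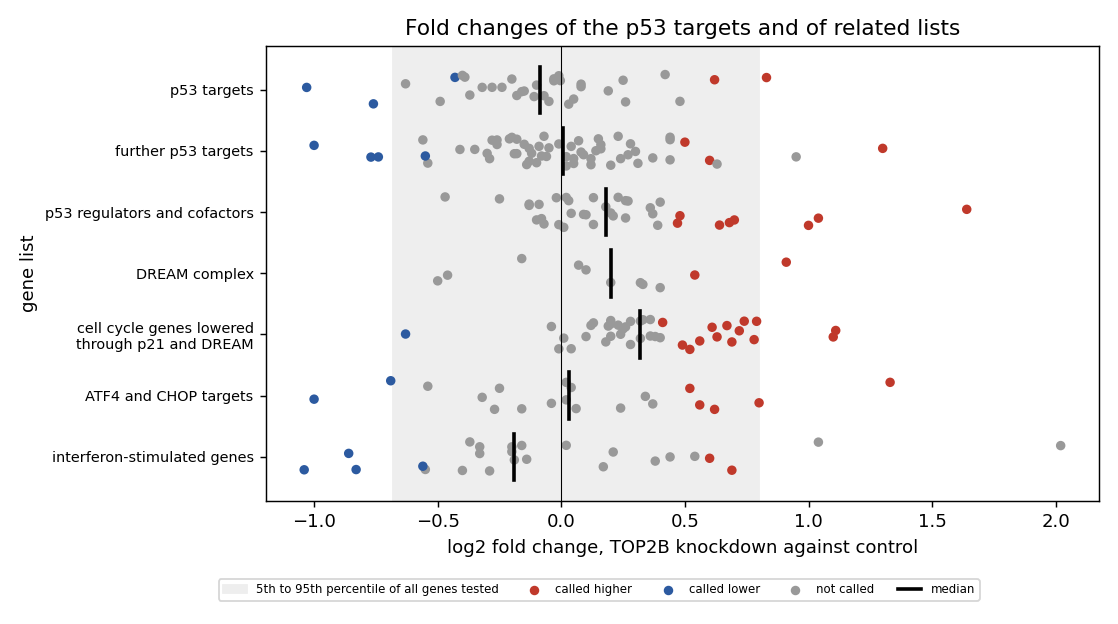
Log2(fold change) from edgeR of each tested gene in the p53 target list and in 6 related lists, TOP2B knockdown against control; red and blue points are genes called higher and lower, grey points those not called, black ticks list medians, and the shaded band the 5th to 95th percentile of all genes tested (-0.68 to 0.80). The p53 targets centre at -0.09 and further p53 targets at 0.0027, while the cell cycle genes lowered through p21 and DREAM centre at 0.32.

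The list of targets of the stress factors ATF4 and CHOP shares SESN2, TNFRSF10B and GDF15 with the p53 targets. Of its 20 tested genes, 5 rose and 2 fell (35% called, beside 10.8% of all genes), with a median of 0.03. The serine and one-carbon enzymes SHMT2 (88.0 and 99.7 against 220.2 and 251.5 CPM, 1.33, edgeR adjusted p = 0.000687) and MTHFD2 (0.80, adjusted p = 0.00773) were higher. DDIT4, an inhibitor of mTORC1 (-1.0, adjusted p = 0.0117), and the lipoprotein receptor VLDLR (-0.69, adjusted p = 0.0278) were lower, with the VLDLR call lost without control replicate 1 (-0.47, adjusted p = 0.102) or knockdown replicate 2 (-0.55, adjusted p = 0.0604). Of the 2 tested genes on both lists, SESN2 rose and TNFRSF10B was not called.

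The word GCAACC, found more often in the 3′ UTRs of higher genes in these data, was present in the 3′ UTR of the canonical transcript of 12 of the 34 tested members (35.3%), against 23.4% of all tested genes with a 3′ UTR. Both members that rose carry it. The word came from earlier results of these same data, so its presence in these 2 genes is no separate support for a link. SESN2 has 1 copy at base 1467 of its 1689-base 3′ UTR, and FDXR has 1 copy at base 311 of its 320-base 3′ UTR. These copies are printed with their flanks, 5′ to 3′ on the strand of the gene, with the word in capitals.
SESN2: cggagaaGCAACCggcaccc
FDXR: aacagctGCAACCaaga
The SESN2 copy lies at chr1:28282262-28282281 on the plus strand and the FDXR copy at chr17:74862497-74862513 on the minus strand (GRCh38). TP53INP1, which fell, also holds 1 copy. The 12 members with the word had a median log2(fold change) of -0.08 with 2 higher and 1 lower, and the 22 without it a median of -0.09 with 0 higher and 2 lower by edgeR. DESeq2 also called 0 higher without the word, where DDB2 and CCNG1 had a positive change at an unadjusted p under 0.05. Over all genes, the 2927 with the word had a median of 0.06 with 368 higher and 120 lower, and the 9590 without it a median of -0.04 with 574 higher and 491 lower. Whether the members differ from all genes in this was not tested, and the length of the 3′ UTR was not taken into account.

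Some members share exon bases with a neighbour, where reads may be left out or counted for the wrong gene. Exon bases shared with another gene on either strand came to 24.6% for XPC, 19.4% for TIGAR, 18.4% for PHLDA3, 16.7% for TNFRSF10A and 14.7% for MDM2. The overlapping neighbour of PHLDA3 and those of MDM2, except the carboxypeptidase M gene with 1.60% of the MDM2 exon bases, had 0 counts in the table, while XPC-AS1 averaged 49.8 counts per library. None of these 5 members was called. Of the 5 called members, the largest overlap was 3.99%, for TP53INP1.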

How the data were processed

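Single-end 65-bp RNA-seq libraries of 2 control and 2 TOP2B knockdown samples were analysed, which the study's methods call independent biological replicates. The authors checked reads with FastQC 0.11.6, aligned them with STAR 2.5.4a to GRCh38 and deposited raw counts per gene on the Gencode v24 annotation. The columns are tagged as stranded and paired-end, unlike the stated single-end reads, and the strand option used in counting is not given in the sources used here. A second copy of each column (4 in all) was not used. Symbols and positions came from GENCODE v44 (93.1% of genes), promoter windows from RefSeq. Genes reaching 10 counts in 2 or more libraries were tested with edgeR 4.0.16 in R 4.3.3 (glmQLFit and glmQLFTest, TMM, Benjamini-Hochberg adjustment, called below 0.05, common dispersion 0.0117). SE and 95% intervals are on the log2 scale and unadjusted. The SE was derived from the edgeR test, as the absolute log2(fold change) divided by the square root of its F statistic. The intervals used this SE and a t quantile. The list members and all other lists were chosen with earlier results of these data known, so no list was tested as a set. Text names TOP2B, MDM4, every member and up to 4 called genes with the largest change of each other list; RCHY1, CKS1B, PDGFRB, overlapping neighbours and marker genes were named beyond this rule, and 1 gene under it is not reported here and was left out of the lists. Alternatives were DESeq2 1.42.0, its size factors, library size alone, no filter, a mean of at least 100 counts, a replicate block and each library left out. The scripts were tested on simulated data.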

Additional observations from a re-analysis of the deposited data

How the results depend on the processing

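Of the 34 tested p53 targets, all kept direction and side of the threshold with the size factors of DESeq2, with library size alone and with a minimum mean of 100 counts, and 32 did with the Wald test of DESeq2 and without a filter (3 higher, 4 lower). Leaving out 1 library in turn gave 1 to 2 higher and 2 to 5 lower p53 targets, with 5 lower without control replicate 1 or knockdown replicate 2 and 1 higher without knockdown replicate 2, and a median from -0.18 to -0.03; the lone library was assumed to vary like the other group. Called genes then numbered 4 to 7 among further p53 targets (4 without control replicate 2), 5 to 8 among regulators and cofactors (5 without control replicate 2 or knockdown replicate 1), 1 to 2 in the DREAM complex and 3 to 7 among ATF4 and CHOP targets (3 without knockdown replicate 2). Fitted values changed sign for PPM1D (-0.26 to 0.06), GADD45A (-0.45 to 0.04), PLK2 (-0.03 to 0.48), BAX (-0.21 to 0.13), PHLDA3 (-0.33 to 0.04), PERP (-0.12 to 0.08), CYFIP2 (-0.18 to 0.16), TP53I3 (-0.07 to 0.18), RPS27L (-0.17 to 0.19), ZMAT3 (-0.08 to 0.25), SESN1 (-0.16 to 0.11), TIGAR (-0.23 to 0.11) and SPATA18 (-0.07 to 0.50), none of them called. Replicate numbers are shared between the groups, and deviations of replicate 1 from its group mean correlated across 15356 genes (r = 0.479), but no source says that a number marks a shared culture or day. With the replicate block, 6 p53 targets were higher and 14 lower, while 44.2% of all genes were called; 27 further p53 targets, 23 regulators and cofactors, 7 DREAM complex genes, 32 cell cycle genes, 14 ATF4 and CHOP targets and 12 interferon-stimulated genes were called. With the length of all exons, chosen after seeing the data, CDKN1A had the highest level per length, at 13.84 times the median. The cause of these shifts was not tested. With 2 libraries per group, changes below 2-fold could be missed at this depth.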

Other observations

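Of 25 tested interferon-stimulated genes, 2 rose and 4 fell after TOP2B depletion by edgeR (24% called, beside 10.8% of all genes), with a median log2(fold change) of -0.19. DESeq2 called 1 higher and 4 lower. IFIT1, which binds viral RNA, fell from 18.9 and 17.9 to 9.58 and 8.28 CPM (-1.04, edgeR adjusted p = 0.00321). IFI6, a small membrane protein, fell by 0.86 on the log2 scale (adjusted p = 0.00691) and IFIT2, a relative of IFIT1, by 0.83 (adjusted p = 0.0143), a call lost without knockdown replicate 1 (-0.64, adjusted p = 0.0639). HERC5, the ligase that attaches ISG15, moved the other way, from 17.1 and 17.2 to 26.2 and 29.0 CPM (0.69, adjusted p = 0.0107).

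Of the 11 genes of the DREAM complex, 2 rose and 0 fell (18.2% called, beside 10.8% of all genes, median 0.20). DESeq2 also called 2 higher and 0 lower. Before adjustment, edgeR gave a p under 0.05 to 5 higher genes and 1 lower gene, and to 26.3% of all genes. The 2 higher genes encode the dimerization partners of E2F factors, TFDP2 with 25.9 and 24.9 against 44.9 and 50.4 CPM (0.91, edgeR adjusted p = 0.00243) and TFDP1 with 150.5 and 168.0 against 218.7 and 243.7 CPM (0.54, adjusted p = 0.0294). The TFDP1 call was lost without control replicate 1 (0.46, adjusted p = 0.189), control replicate 2 (0.62, adjusted p = 0.0609) or knockdown replicate 2 (0.44, adjusted p = 0.207).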
